A study of Mus musculus with 4 samples.

Results

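Capture spots of the day 7 muscle section that carried RNA of bone-forming cells, but had not been set aside as cartilage, were described. A spot is a small printed area of the slide on which RNA of the overlying tissue is captured, and it can hold several cells of different kinds. Spots with at least 2000 UMIs (unique molecular identifiers, each counted as 1 captured RNA molecule) were ranked by the share of their UMIs that came from Col2a1, Acan and Col9a1, and those at or above the 91st percentile were put aside as cartilage spots. Among the remaining spots, those at or above the 93rd percentile of the summed share of Ibsp, Alpl and Sp7 were taken, and they are called bone-gene spots below. They numbered 188 of 2682 spots under the cartilage cut, of 2948 spots with 2000 or more UMIs, of 3032 spots of the day 7 section and of 10835 spots in the series. Cartilage spots numbered 266, and the 2494 spots in neither class are called other spots.

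Bone that forms outside the skeleton usually follows the course of fetal long bone growth, called endochondral ossification: mesenchymal cells condense, become chondrocytes that lay down cartilage, the chondrocytes enlarge, and osteoblasts then replace the cartilage with bone. Alpl, tissue-nonspecific alkaline phosphatase, and Ibsp, integrin-binding sialoprotein of mineralised matrix, are made by enlarging chondrocytes as well as by osteoblasts, and Sp7 (osterix), a transcription factor needed for osteoblast formation, is also found in those chondrocytes. The 3 marker genes therefore do not by themselves separate bone from late cartilage.

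The sections came from Nse-Bmp4 mice on the C57BL/6 background, aged 6 to 8 weeks, in which the rat neuron-specific enolase promoter drives a Bmp4 cDNA and which form bone in muscle after injury. Tibial muscle was taken uninjured (day 0) and 1, 3 and 7 days after an injection of cardiotoxin, a snake toxin that destroys muscle fibres. All 4 sections carried the transgene, and there was no section without it. Each day was represented by 1 section, 3 muscles were mixed in a group, and the labels do not settle how many of them a section holds. No test between days or between spot classes was therefore made, and no p-value is given. Spots of 1 section share a tissue, a slide and a library and are not replicates. Values are CPM, counts per 1e6, that is the UMIs of a gene summed over the spots of a class and scaled to their UMI total, with exact Poisson intervals at 95%. Ratios carry exact intervals at 95% as well, and all of these intervals cover counting error only. In such sums, fewer cells of a type and less RNA per cell cannot be told apart.

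The bone-gene spots held 2718458 UMIs, 6.52% of the UMIs in the spots used. Their depth ran from 2188 to 40776 UMIs with a median of 13842.5, against medians of 10781.5 in cartilage spots and 12413.5 in other spots. A median of 3945.5 genes was detected in a bone-gene spot, 3850 in a cartilage spot and 3134 in another spot. RNA of adult muscle fibres, given by 10 contractile and metabolic genes, took 10.3% of UMIs in bone-gene spots, 4.56% in cartilage spots and 14.4% in other spots. The mitochondrial share was 8.05%, 3.46% and 12.8% in the same order. Bone-gene spots thus lay between the other spots and the cartilage spots in muscle content.

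The 6 genes below set the classes, so their levels are a description. Ibsp (chromosome 5, 104299287 to 104311472, mouse GRCm38) stood at 456 CPM (431 to 482) in bone-gene spots, 1472 CPM in cartilage spots and 75.7 CPM in other spots. Alpl (chromosome 4, 137741731 to 137796384) stood at 168 CPM (153 to 185), 330 CPM and 31.8 CPM. Sp7 (chromosome 15, 102356603 to 102367035) stood at 82.8 CPM (72.3 to 94.3), 231 CPM and 16.4 CPM. Cartilage spots were the richest in all 3 marker genes, and held 56.5% of the Ibsp, 41.9% of the Alpl and 49.8% of the Sp7 UMIs of the section. The bone-gene spots held 13.7%, 16.7% and 13.9%. Of the cartilage genes, Col2a1 (type II collagen) was at 690 CPM in bone-gene spots, 4700 CPM in cartilage spots and 214 CPM in other spots. Acan, the large proteoglycan of cartilage, was at 498, 1873 and 122 CPM, and Col9a1, a chain of type IX collagen, at 210, 1394 and 59.8 CPM. The spots chosen for bone genes outside cartilage thus also carried more cartilage RNA than the other spots did.

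The marker counts behind a single spot were small. A bone-gene spot held 2 to 57 UMIs of Ibsp, Alpl and Sp7 with a median of 10, and 96 of the 188 held 10 or more. In 25 spots the call rested on 2 or 3 UMIs, and these were shallow spots with a median of 3388 UMIs. All 3 markers were detected in 93 spots, 2 of them in 82 and Ibsp alone in 13. Ibsp was found in 99.5% of bone-gene spots against 44.2% of other spots, and in 64.9% against 10.99% when every spot was thinned to 2000 UMIs. The score cut lay at 5.07 marker UMIs per 10000. The 5 bone-gene spots just above it reached 5.16 and the 5 other spots just below it went down to 5.04, and 42 bone-gene spots and 63 other spots lay within 10% of the cut.

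Bone-gene spots were graded in their cartilage RNA. Their summed share of Col2a1, Acan and Col9a1 had a median of 12.8 UMIs per 10000, with the middle of the spots between 9.20 and 17.3, a highest value of 24.3 and a cartilage cut of 24.7. Other spots had a median of 2.14 and cartilage spots one of 71.8. Only 4 of the 188 bone-gene spots were at or under the median of the other spots, whereas 134 were above the 90th percentile of the other spots. The share of spots that passed the score cut climbed with cartilage share: 0.407% of spots up to the 50th percentile of cartilage share passed it (6 of 1474), 4.61% between the 50th and 75th percentile, 24.1% between the 75th and 85th, and 43.5% between the 85th and 91st. In the cartilage spots themselves 249 of 266, or 93.6%, would have passed. Most bone-gene spots thus had a cartilage share between those of most other spots and of the cartilage spots, and 77 of the 188 lay between the 85th and 91st percentile, just under the cartilage cut. RNA spread from cartilage spots and cartilage cells within the spot cannot be told apart here, since spot positions were not used.

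**Figure D1:**
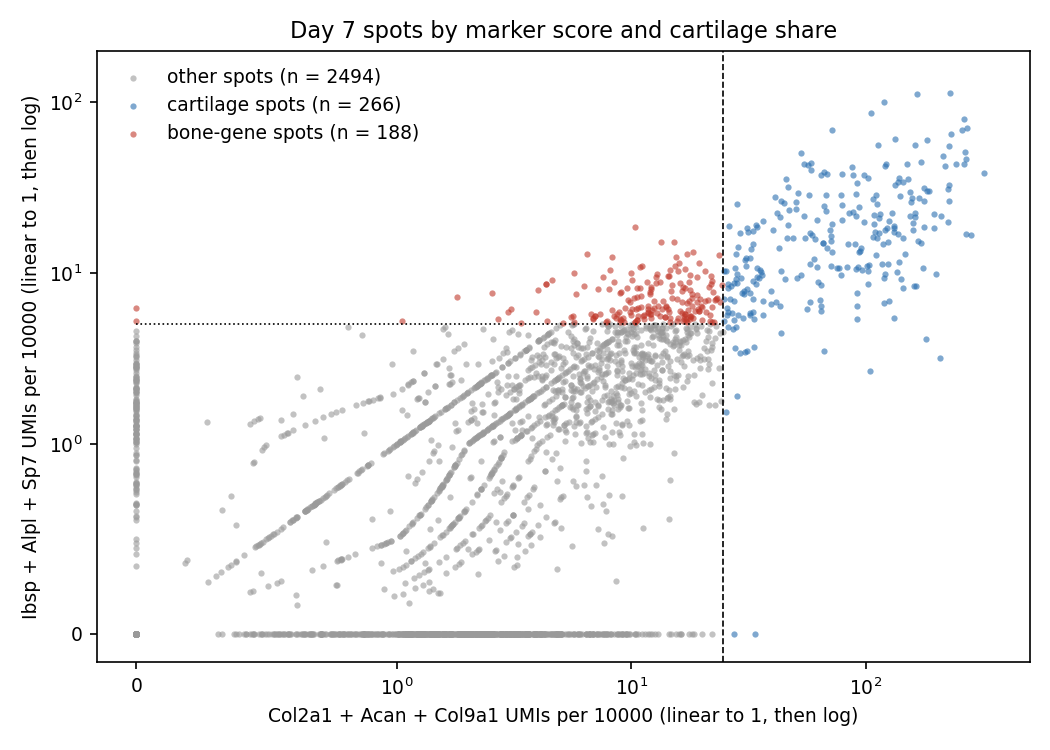
Each point is 1 day 7 spot, placed by its UMIs of Col2a1, Acan and Col9a1 per 10000 (x axis, linear to 1 and then logarithmic) and its UMIs of Ibsp, Alpl and Sp7 per 10000 (y axis, same scale), coloured by class. The 188 bone-gene spots lie above the score cut of 5.07 and to the left of the cartilage cut of 24.7, with a median cartilage share of 12.8.

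To read other genes beside this gradient, each was compared in 3 ways: with all other spots, with cartilage spots, and with the level expected from other spots of the same cartilage share, in which other spots were weighted within narrow bands of the cartilage share to match the bone-gene spots. For genes at least 2-fold higher in cartilage spots than in other spots, the position of the bone-gene spots was also given, from 0% at the level of the other spots to 100% at the level of the cartilage spots. Of 15206 genes with enough UMIs, 8.44% were at least 2-fold higher in bone-gene spots than in other spots and 6.24% at least 2-fold lower, with a median ratio of 1.15. Against cartilage spots 5.31% of 12912 genes were at least 2-fold higher and 9.23% at least 2-fold lower, with a median ratio of 0.869. Scaling by TMM, which sets the bulk of genes equal between classes, multiplied every ratio over other spots by 0.840 (a log2 shift of -0.25) and every ratio over cartilage spots by 1.13 (0.18). The 1283 genes 2-fold higher and 949 lower than other spots then became 726 and 1214, and the 685 higher and 1192 lower than cartilage spots became 977 and 802. Under TMM the share 2-fold higher than other spots was thus 4.77%. Ratios below are CPM ratios, and list counts are given with both scalings where they differ by 1.5 times or more. At equal cartilage share the median ratio was 1.03, and 3.81% of 11435 genes were 1.5-fold or more higher. The median position was 35.1% over 2634 genes.

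Bone genes outside the rule were low in bone-gene spots and far below their level in cartilage spots. The bone list held 15 genes that the rule had not used, of osteoblast transcription factors, mineralisation and bone matrix. Panx3, a channel of late chondrocytes as well as osteoblasts, was among them. The list's summed level was 184 CPM in bone-gene spots, 861 CPM in cartilage spots and 63.1 CPM in other spots. The sum was thus 2.92-fold that of other spots (2.65 to 3.22). At least 2-fold higher were 6 of 10 usable genes against the 8.44% of all genes (4 with TMM scaling, against 4.77%). At least 2-fold lower were 2 of them, against 6.24% of all genes. The sum was 0.214 of that of cartilage spots (0.194 to 0.235), with 7 of 9 usable genes at least 2-fold lower against the 9.23% of all genes. Against other spots of the same cartilage share the ratio was 1.04 (0.925 to 1.16). None of 5 usable genes was 1.5-fold or more higher there, against 3.81% of all genes, so the count itself says little. With classes set on 1 part of the UMIs and levels read in the other, that ratio was 1.19 (1.01 to 1.40). Smpd3, a sphingomyelinase needed for mineralisation, gave 49.9% of the bone list's UMIs, and Panx3 gave most of the rest. The list's sums thus mainly describe Smpd3 and Panx3. Most of the excess of the bone list over other spots was thus not seen once cartilage RNA was held equal.

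Of the transcription factors, Runx2, the master regulator of osteoblast formation that is also active in late chondrocytes, had 44 UMIs in bone-gene spots, or 16.2 CPM (11.8 to 21.7), against 46.9 CPM in cartilage spots and 5.88 CPM in other spots. At equal cartilage share its ratio was 1.03 (0.709 to 1.499). Dlx5, a homeobox factor upstream of Sp7, had 18 UMIs, 6.62 CPM (3.92 to 10.5), against 26.2 and 1.77 CPM. Both were 2.75-fold (1.94 to 3.82) and 3.73-fold (2.08 to 6.39) above other spots. The summed list of 8 osteoblast transcription factors was 0.958 of other spots (0.899 to 1.02). Mef2c, which muscle also expresses, gave 47.0% of that sum and was at 0.805 of other spots (0.733 to 0.882). Atf4 gave 473 of the list's 1030 UMIs and was at 1.06 (0.959 to 1.16), so the sum mainly describes Mef2c and Atf4. Over that list 3 of 5 usable genes were at least 2-fold higher (2 with TMM), against 8.44% of all genes (4.77% with TMM).

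Of the genes of mineralisation, Smpd3 and Enpp1 followed the same order, whereas Ank and Slc20a2 ran the other way. Ank was at 53.3 CPM in bone-gene spots, 40.6 CPM in cartilage spots and 68.7 CPM in other spots. Slc20a2 was at 27.2, 24.5 and 29.6 CPM. Smpd3 was at 92.0 CPM (80.9 to 104) in bone-gene spots, 539 CPM in cartilage spots and 30.2 CPM in other spots, a position of 12.2%, with 1.01 (0.859 to 1.18) at equal cartilage share. Enpp1, which makes the pyrophosphate that restrains mineral growth, was at 39.4 CPM, 75.1 CPM and 14.9 CPM and lay higher on the scale, at 40.6%. Phospho1, which releases phosphate inside matrix vesicles, had 0 UMIs. Of the 9 genes on the mineralisation list 3 of 8 usable genes were at least 2-fold higher than in other spots, against 8.44% of all genes. Phex was the 1 gene at least 2-fold lower, against 6.24% of all genes.

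Most genes of mature bone were at or near 0. Bglap and Bglap2, which encode osteocalcin, the usual marker of mature osteoblasts, had 0 UMIs in bone-gene spots and in cartilage spots. The osteocyte genes Dmp1, Sost and Fgf23 also had 0 UMIs in bone-gene spots, Mepe had 2 and Phex 1. Taking 3 UMIs as the limit of a count of 0, a gene at 0 could stand at up to 1.104 CPM. Ifitm5, a membrane protein of mineralising osteoblasts, had 9 UMIs in bone-gene spots, 21 in cartilage spots and 50 in other spots. The remaining gene of the osteocyte list, Pdpn (podoplanin), which lymphatic vessels and stromal cells also make, had 118 UMIs and gave 97.5% of that list's sum, at 43.4 CPM against 41.7 CPM in other spots. The spots are named here only by the genes that chose them.

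Matrix genes shared by bone and fibrous tissue were abundant. Col1a1, the main chain of type I collagen, was at 19853 CPM in bone-gene spots, 41312 CPM in cartilage spots and 6892 CPM in other spots, 2.88-fold above other spots (2.85 to 2.91) and 1.06 (1.05 to 1.08) at equal cartilage share. Over single bone-gene spots the summed bone matrix list ran from 4346 to 111742 CPM with a median of 29929 CPM. Spp1, osteopontin, which macrophages also make, was lower in bone-gene spots than in other spots, at 43.0 against 103 CPM, a ratio of 0.419 (0.346 to 0.504). In the bone matrix list 6 of 9 usable genes were at least 2-fold higher than in other spots (4 with TMM), against 8.44% of all genes (4.77% with TMM). At least 2-fold lower were 2 genes, against 6.24% of all genes. These were Spp1 and Dmp1, which had 0 UMIs in bone-gene spots and 15 in other spots. Collagen processing enzymes and chaperones, such as Plod2, a lysyl hydroxylase that readies collagen for cross-linking, were 2.24-fold above other spots as a list (2.19 to 2.30), with 9 of 11 genes at least 2-fold higher (4 with TMM; 8.44% and 4.77% of all genes) and 1.13 (1.103 to 1.17) at equal cartilage share.

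Cartilage genes that the rule had not used were high over nearly their whole list. The 16 genes summed to 1900.0 CPM in bone-gene spots, 8829 CPM in cartilage spots and 626 CPM in other spots, 3.04-fold above other spots (2.95 to 3.13), with 13 of 15 usable genes at least 2-fold higher, against 8.44% of all genes. Sox9, the master regulator of chondrocytes, was at 153 CPM (139 to 169), 455 CPM and 43.1 CPM. Col9a3, another type IX collagen chain, was at 172 CPM, 1196 CPM and 56.1 CPM. Genes of enlarged (hypertrophic) cartilage were 3.48-fold above other spots (3.25 to 3.73) with 4 of 5 genes at least 2-fold higher, against the same 8.44%, and Pth1r, the receptor for parathyroid hormone-related protein, gave 77.4% of that sum. Pth1r was at 289 CPM (269 to 310), 1166 CPM and 80.5 CPM. Panx3, a channel of late chondrocytes and osteoblasts, was at 53.7 CPM, 222 CPM and 14.1 CPM, and Col10a1, the collagen of hypertrophic cartilage, at 11.04 CPM, 81.5 CPM and 3.57 CPM. In their excess over other spots, the bone list at 2.92-fold and the unused cartilage list at 3.04-fold had overlapping intervals.

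Lists differed in where the bone-gene spots lay between other spots and cartilage spots. The median position was 12.9% for hypertrophic cartilage genes, 16.0% for the unused cartilage list and 19.5% for the bone list, all under the 35.1% over all genes placed. It was 36.2% for collagen processing, 37.7% for bone matrix and 49.4% for fibrous and periosteal stroma. Postn, a matrix protein of the periosteum and of healing tissue, stood at 2671 CPM in bone-gene spots against 3233 CPM in cartilage spots and 1066 CPM in other spots, a position of 74.0% (71.2 to 76.9). Tnn, tenascin-W, a matrix protein of the periosteum and of bone-forming sites, stood at 47.6% (44.2 to 51.1). Spots above the cartilage cut were put in the cartilage class, so low positions of genes that go with cartilage RNA are partly set by the rule. The bone list's median rests on 4 genes, of which Panx3 is also on the hypertrophic cartilage list.

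**Figure D2:**
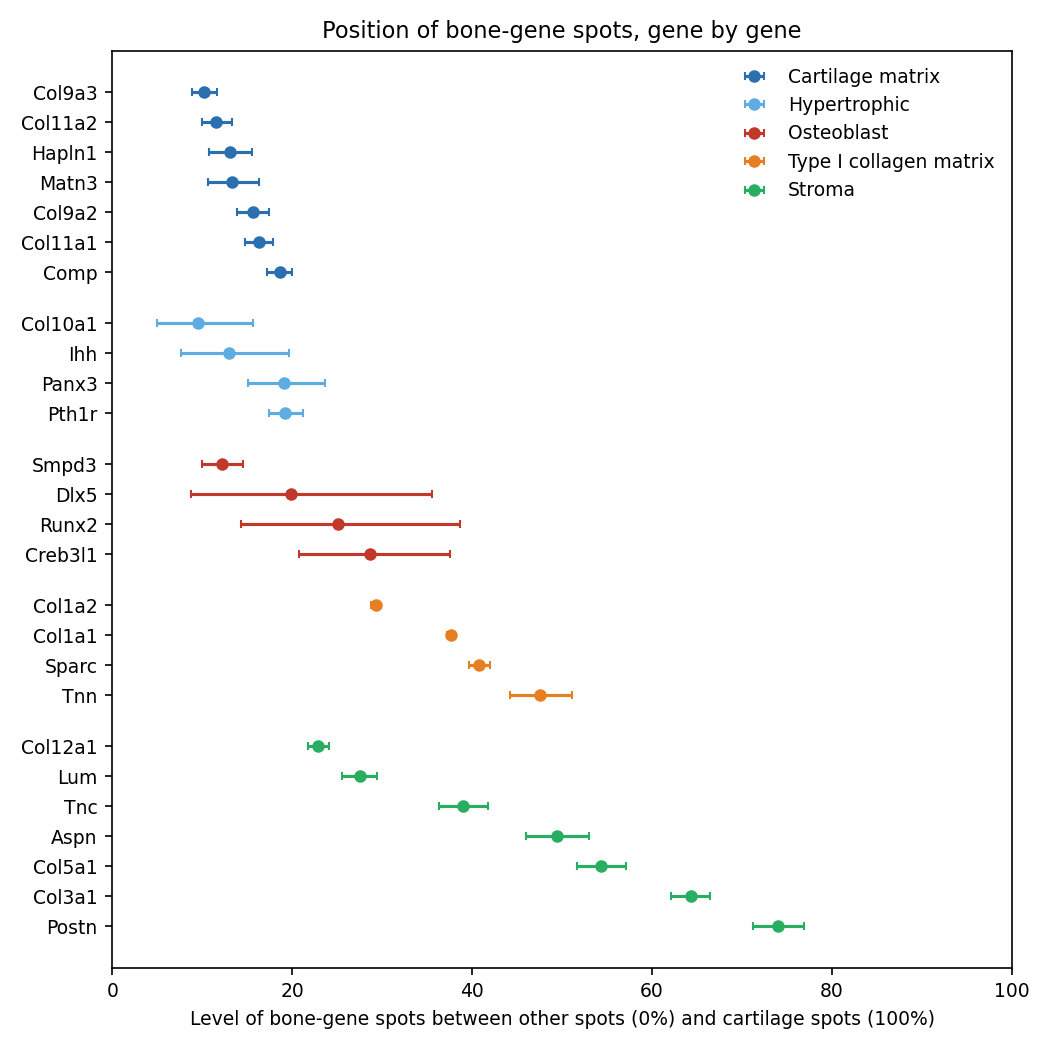
Position of the bone-gene spots on a scale from the level of other spots (0%) to that of cartilage spots (100%), gene by gene (x axis, percent). Each point is 1 gene with a bar for counting error. The genes are a selection, coloured in groups that are not the fixed lists, and Creb3l1 of the collagen processing list is drawn in the osteoblast group. Medians of the fixed lists, which are not drawn, run from 12.9% for hypertrophic cartilage to 49.4% for fibrous and periosteal stroma.

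By the rule for named genes, the 12 genes with the largest ratio over other spots were led by Tnn and Tnc. Tnn stood at 430 CPM (406 to 456) in bone-gene spots, 808 CPM in cartilage spots and 88.2 CPM in other spots, 4.88-fold above other spots (4.56 to 5.22). Tnc, tenascin-C, a matrix protein of tendon, perichondrium and healing tissue, stood at 496 CPM (470 to 523), 1085 CPM and 119 CPM, 4.16-fold above other spots (3.91 to 4.42). The other 10 were Snorc, Panx3, C1qtnf3, Col9a2, Pth1r, Cyp26b1, Sox9, Ecrg4, Col12a1 and Plod2, at 3.86-fold to 3.45-fold. Several of these are cartilage genes, while Cyp26b1 is an enzyme that degrades retinoic acid and Col12a1 a collagen of tendon and periosteum. Among the 8 lowest were Actc1 (0.328), Gpnmb, Ldhb, Mt2, Myh8, Myh3 and Fbxl22 (0.412), of which Actc1, Myh3 and Myh8 are genes of embryonic muscle.

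At equal cartilage share, Tnn remained 1.40-fold (1.30 to 1.52) and Tnc 1.45-fold (1.35 to 1.56) above the expected level, where the bone list was at 1.04. With the score cut at the 97th percentile the values were 2.01 and 2.19, and with a score without Ibsp 2.21 and 2.46. Few spots held much of this RNA. Over the 188 bone-gene spots Tnn ran from 0 to 3347 CPM with a median of 231 CPM, and Tnc from 0 to 3777 CPM with a median of 262 CPM. The 19 spots with the most UMIs of the gene held 53.9% of the Tnn and 55.9% of the Tnc, against 21.5% of the Ibsp, 24.9% of the Col2a1 and 36.0% of the Smpd3. This was not particular to the tenascins, since the values were 52.4% for Postn, 58.4% for Cyp26b1, 46.1% for Sfrp2 and 44.9% for Sp7. Of the 19 spots richest in Tnn and the 19 richest in Tnc, 13 were the same. These 13 were deep, with a median of 28084 UMIs against 13842.5 over all bone-gene spots. Without the 3 spots that held the most UMIs of the gene, the ratio at equal cartilage share was 1.13 (1.04 to 1.23) for Tnn and 1.11 (1.03 to 1.202) for Tnc, a step that lowers the value by its construction.

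Over other spots, fibrous and periosteal stroma summed to 2.16-fold (2.14 to 2.19), with 7 of 12 genes at least 2-fold higher, against 8.44% of all genes, and to 1.06 (1.05 to 1.08) at equal cartilage share. The tendon list was at 1.66-fold (1.60 to 1.73) and at 1.00 (0.956 to 1.05), and the list of mesenchymal stromal cell genes, such as Pdgfra and Prrx1, at 1.13-fold (1.08 to 1.17) and at 1.01 (0.967 to 1.06), the former turning to 0.946 with TMM. Mesenchymal stromal cell genes summed to 1093 CPM in bone-gene spots, 947 CPM in cartilage spots and 971 CPM in other spots.

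**Figure D3:**
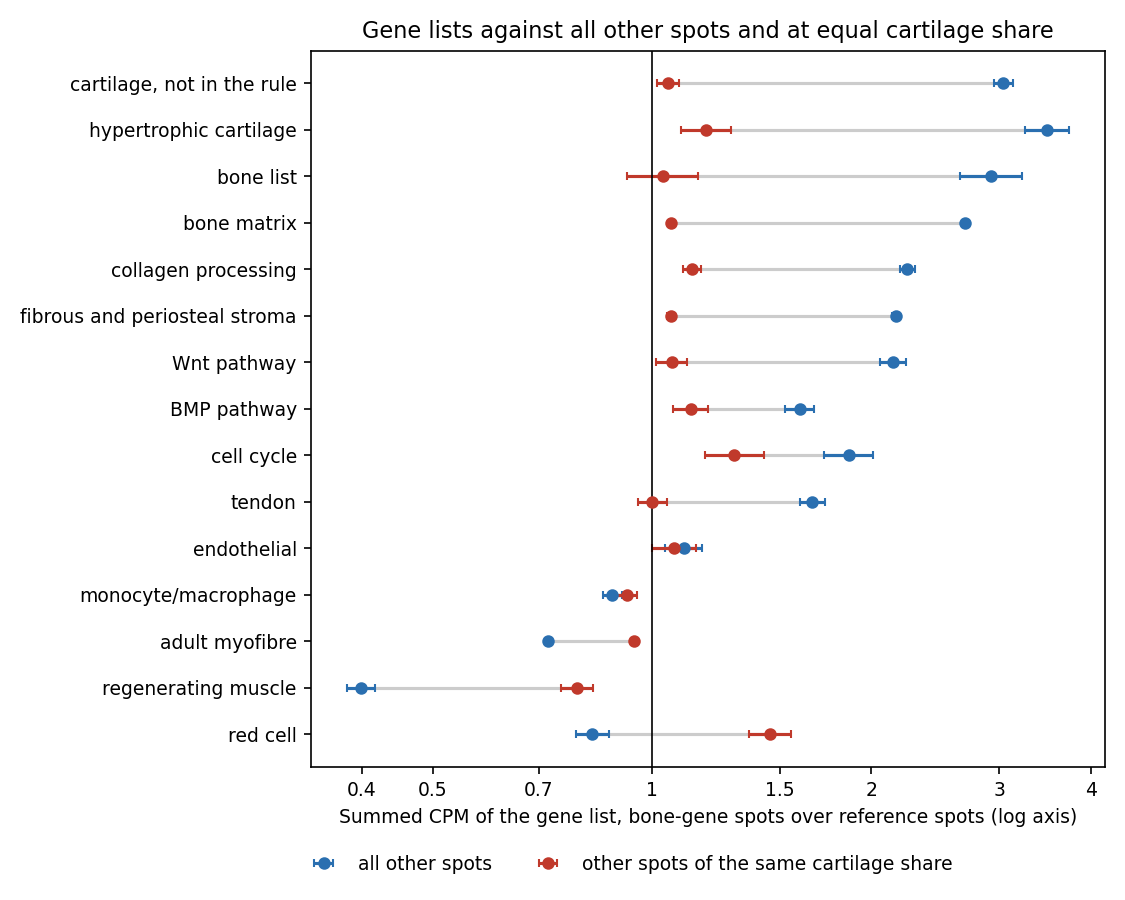
Summed CPM of each gene list in bone-gene spots divided by that in all other spots and by that expected from other spots of the same cartilage share (x axis, logarithmic), with bars for the counting interval at 95%. The bone and cartilage lists lie near 3 against all other spots and near 1 at equal cartilage share, whereas cell cycle lies at 1.30 and red cell at 1.45.

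Over other spots, signalling genes were higher for several receptors, inhibitors and targets, and the list sums were closer to 1 at equal cartilage share. For the BMP pathway, through which the transgene acts, the ligand Bmp4 had 24 UMIs in bone-gene spots, 8.83 CPM (5.66 to 13.1) against 9.88 CPM in other spots, and the counts do not separate transgene from endogenous RNA. The receptor gene Acvr1 stood at 38.6 CPM against 19.7 CPM in other spots. Target genes of the pathway were higher than in other spots, Id2 by 2.10-fold (1.77 to 2.48) and Id3 by 2.06-fold (1.91 to 2.22), while Id1 was at 1.38-fold (1.18 to 1.60). TMM scaling, with its factor of 0.840, takes Id2 and Id3 under 2-fold and the lower limit of Id1 under 1. The inhibitors Bambi, a decoy receptor, and Smad6 were at 3.38-fold (2.65 to 4.27) and 2.19-fold (1.48 to 3.14), and both also exceeded the level at equal cartilage share, at 1.51 (1.14 to 2.01) and 1.79 (1.11 to 2.88). These were the only 2 of 15 usable BMP genes 1.5-fold or more higher there, against 3.81% of all genes, and the list summed to 1.13 (1.07 to 1.19). The secreted inhibitor Nog had 22 UMIs and a ratio of 0.733 (0.454 to 1.13). In the BMP list 6 of 20 genes were at least 2-fold higher than in other spots, against 8.44% of all genes, and none at least 2-fold lower. With TMM scaling 2 were higher, against 4.77% of all genes, and 1 lower.

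Of the Wnt list, 6 of 14 usable genes were at least 2-fold higher than in other spots (3 with TMM), against 8.44% of all genes (4.77% with TMM), and Sfrp2, a secreted modulator of Wnt signals, gave 55.2% of its UMIs, at 530 CPM against 213 CPM in other spots. The inhibitor genes Dkk3 and Frzb stood at 3.28-fold (2.84 to 3.78) and 2.65-fold (2.27 to 3.09). The Wnt target Axin2 had 14 UMIs and a ratio of 0.953 (0.511 to 1.64), and Lef1 had 0 UMIs. Of the Hedgehog and parathyroid hormone-related protein list 4 of 10 genes were at least 2-fold higher, against the same 8.44%. Ihh, the ligand made by maturing chondrocytes, had 41 UMIs, 15.1 CPM against 84.6 CPM in cartilage spots and 4.76 CPM in other spots, and its targets Gli1 and Ptch1 were at 1.71-fold (1.09 to 2.58) and 1.52-fold (1.05 to 2.14). TMM scaling, which multiplies ratios over other spots by 0.840, takes the lower limits of Gli1 and Ptch1 under 1. Of the FGF list 2 of 7 genes were at least 2-fold higher, against 8.44% of all genes, with Fgfr2, a receptor of bone-forming cells and their precursors, at 32.4 CPM against 8.39 CPM.

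Cell cycle genes summed to 279 CPM in bone-gene spots, 548 CPM in cartilage spots and 150 CPM in other spots, with 5 of 10 genes at least 2-fold higher than in other spots (1 with TMM), against 8.44% of all genes (4.77% with TMM). At equal cartilage share the sum stayed at 1.30 (1.18 to 1.42), and 2 of the 10 genes, Ccnb1 and Mcm2, were 1.5-fold or more higher, against 3.81% of all genes. Ccnb1, cyclin B1, had 34 UMIs and was at 1.89 (1.22 to 2.93), and Mcm2, a DNA replication factor, had 64 UMIs and was at 1.56 (1.12 to 2.17). Mki67, the proliferation antigen, was at 1.16 (0.846 to 1.60).

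Other cell types were represented as follows. Endothelial genes summed to 457 CPM in bone-gene spots, 360 CPM in cartilage spots and 414 CPM in other spots, a ratio over other spots of 1.11 that turned to 0.928 with TMM. Over cartilage spots 1 of 8 endothelial genes was at least 2-fold higher, against 5.31% of all genes. This was the vascular gene Vwf, at 58.9 CPM against 24.2 CPM in cartilage spots. Monocyte and macrophage genes summed to 1779 CPM, 1490 CPM and 2015 CPM, and to 0.923 (0.892 to 0.955) at equal cartilage share. Mrc1, the mannose receptor used as a marker of M2 macrophages, was at 84.2 CPM (73.7 to 95.9), 67.7 CPM and 90.2 CPM, with 0.860 (0.737 to 1.00) at equal cartilage share. The 4 genes of the M2 macrophage list summed to 173 CPM, 174 CPM and 176 CPM, and to 0.978 (0.877 to 1.09) at equal cartilage share. Of these 4 genes 1 was 1.5-fold or more higher at equal cartilage share, against 3.81% of all genes. Another count, of genes at least 2-fold lower than in other spots, was 1 of 4, against 6.24% of all genes. Summed macrophage genes were thus not higher in bone-gene spots than in other spots. Of the osteoclast list, Ctsk, a collagen-degrading protease also made by stromal cells, gave 63.3%, and 1 of 9 usable genes, Mmp9, was at least 2-fold higher than in other spots (none with TMM), against 8.44% of all genes, while Acp5, the osteoclast acid phosphatase, was at 1.01 (0.802 to 1.27).

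Genes of regenerating muscle were low. The list of 8 genes, with embryonic myosins and cardiac actin, summed to 773 CPM in bone-gene spots, 553 CPM in cartilage spots and 1937 CPM in other spots, a ratio of 0.399 (0.382 to 0.417) over other spots and 0.789 (0.751 to 0.829) at equal cartilage share, with 4 of 8 genes at least 2-fold lower against 6.24% of all genes. Adult myofibre genes were at 0.719 of other spots (0.716 to 0.722) and 2.26-fold the level of cartilage spots (2.25 to 2.28), with 9 of 10 genes at least 2-fold higher than in cartilage spots against 5.31% of all genes. Among the 10 genes with the largest ratio over cartilage spots were the blood gene Hba-a1 at 4.65 (3.55 to 6.16), the lymphatic chemokine Ccl21a at 4.09 (3.19 to 5.29) and the complement regulator Cd55 at 3.66 (2.87 to 4.71). The 10 with the smallest were Col10a1 at 0.135, Col9a3 at 0.144 and then Itga10, Col27a1, Col11a2, Smpd3, Gramd2, Slc13a5, Hapln1 and Dqx1. Red cell genes summed to 3.67-fold the level of cartilage spots (3.32 to 4.07) and to 0.829 of other spots. RNA of muscle fibres and blood was thus higher than in cartilage spots, and RNA of regenerating muscle lower than in the rest of the section.

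The bone-gene spots were next split into 4 groups of 47 by their cartilage share, at 9.20, 12.8 and 17.3 UMIs per 10000, and each was set beside the other spots of the same range. The bone list stood at 103, 174, 178 and 249 CPM from the lowest to the highest group, and at 46.0, 142, 183 and 259 CPM in the other spots. It climbed in step with the cartilage list, which went from 1203 to 2723 CPM, and differed from the other spots mainly in the lowest group, where the range of cartilage share within the other spots reaches down to 0. Tnn went from 184 to 557 CPM and was above the other spots in every group. Of the 3 marker genes, which the rule used, Ibsp stood at 449.5, 470.2, 480.1 and 427 CPM over the 4 groups, with no climb. Alpl stood at 126, 135, 178 and 214 CPM and Sp7 at 68.9, 81.6, 85.6 and 90.03 CPM. Adult myofibre genes went from 133897 CPM in the lowest group to 84640.3 CPM in the highest.

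**Figure D4:**
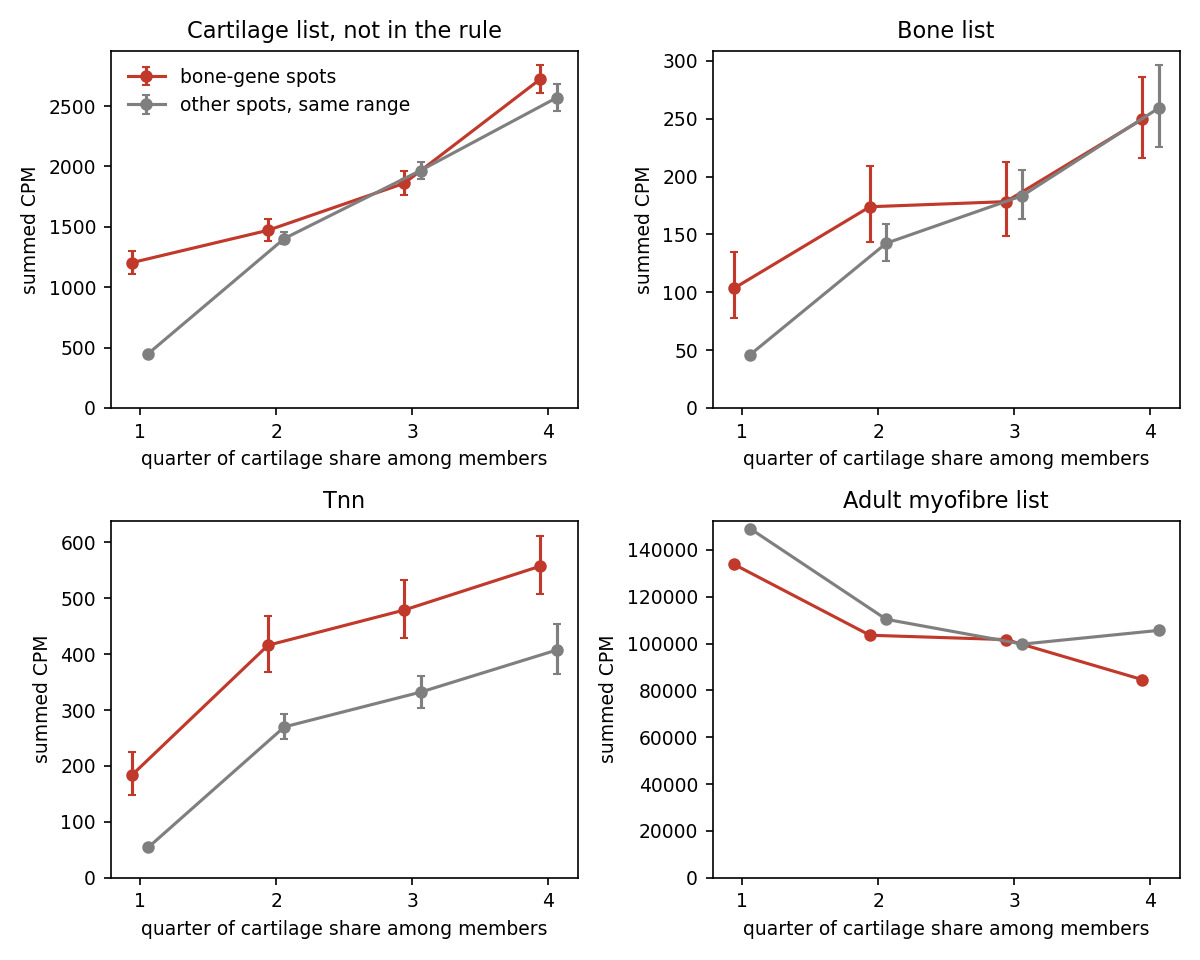
Summed CPM with exact Poisson intervals (y axes, from 0) of the cartilage list, the bone list, Tnn and the adult myofibre list in 4 groups of 47 bone-gene spots ordered by cartilage share (x axes) and in other spots of the same range. From the second group on the bone list does not differ from other spots beyond counting error, and Tnn is higher in bone-gene spots throughout.

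Because the rule fixes the marker genes, their levels were also read in UMIs that had not set the classes. With the UMIs split, the spots were still chosen on the same genes, so the step takes out counting error of the choice and no more. When every UMI was put at random in 1 of 2 equal parts, the spots chosen from 1 part (188, of which 111 were bone-gene spots) and the levels read in the other, Ibsp was 3.64-fold (3.26 to 4.06), Alpl 3.04-fold (2.52 to 3.64) and Sp7 4.09-fold (3.22 to 5.16) above other spots. At equal cartilage share the ratios were 1.43 (1.26 to 1.62), 1.44 (1.16 to 1.78) and 1.499 (1.14 to 1.97). Cartilage share was itself read from 1 part of the UMIs here, and the unused cartilage list stood at 1.12 (1.06 to 1.18), against 1.05 with all UMIs. The cartilage gene Acan was as far above its expected level, at 1.41 (1.28 to 1.56), while Col2a1 and Col9a1 were at 1.03 (0.950 to 1.12) and 1.07 (0.921 to 1.25), so that spots set equal by summed cartilage share were not equal in every cartilage gene. When spots were chosen on 2 markers and the remaining marker was read, Alpl stood at 1.48 (1.29 to 1.70) at equal cartilage share, Ibsp at 1.08 (0.981 to 1.196) and Sp7 at 1.04 (0.853 to 1.26). Spots rich in 2 of the markers were thus richer in the remaining one, at equal cartilage share, for Alpl and not detectably for Ibsp or Sp7.

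Bone-gene spots that also passed a cut on Alpl and Sp7 alone differed from the rest in matrix genes and in several other lists. Of the 188 spots, 89 also passed the 93rd percentile of a score from Alpl and Sp7 alone (Alpl/Sp7-high spots), and the other 99 did not (Ibsp-led spots). Ibsp was the most abundant marker in both sets, at 386 and 512 CPM. Alpl stood at 264 and 91.6 CPM and Sp7 at 134 and 41.8 CPM. Both sets had alike summed cartilage shares, with medians of 12.9 and 12.1 UMIs per 10000, and median depths of 12623 and 14601 UMIs. Single cartilage genes were not alike. Acan was 1.51-fold (1.36 to 1.69) and Sox9 1.57-fold (1.29 to 1.92) the level of the Ibsp-led spots, and Col2a1 0.886 of it (0.807 to 0.972). Of 11570 genes 5.12% were at least 2-fold higher in the first set, with a median ratio of 1.06. Tnn stood at 649 CPM in the Alpl/Sp7-high spots and at 254 CPM in the Ibsp-led spots, a ratio of 2.55 (2.26 to 2.89), and Tnc at 756 and 286 CPM, a ratio of 2.64 (2.35 to 2.97). Of fibrous and periosteal stroma 2 of 12 genes, Tnc and Aspn, were at least 2-fold higher, and the sum was 1.59-fold (1.56 to 1.63). The unused cartilage list was at 1.18 (1.11 to 1.24). Several other lists were also higher, among them BMP at 1.43 (1.31 to 1.56), FGF at 1.53 (1.30 to 1.81) and cell cycle at 1.37 (1.19 to 1.59). Adult myofibre and regenerating muscle lists were lower, at 0.813 (0.806 to 0.819) and 0.737 (0.674 to 0.806). The bone list did not differ beyond counting error, at 0.980 (0.818 to 1.17), nor did hypertrophic cartilage genes, at 0.908 (0.799 to 1.03).

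Genes picked after their values were seen included Cyp26b1 at 2.76 (1.96 to 3.93), Runx1, a transcription factor of early skeletal cells as well as blood cells, at 2.47 (1.82 to 3.36), the homeobox factor Prrx2 at 2.23 (1.63 to 3.08) and Col8a2, a short-chain collagen, at 2.20 (1.63 to 2.99). Here too few spots carried much of the difference. Without the 3 spots richest in the gene, the ratios were 1.87 (1.64 to 2.14) for Tnn, 1.78 (1.56 to 2.02) for Tnc and 1.71 (1.17 to 2.53) for Cyp26b1. Medians over single spots were closer, at 270 CPM in Alpl/Sp7-high spots and 192 CPM in Ibsp-led spots for Tnn, and at 288 and 249.9 CPM for Tnc. The Alpl/Sp7-high spots held 11 of the 13 spots that were among the richest in both tenascins.

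**Figure D5:**
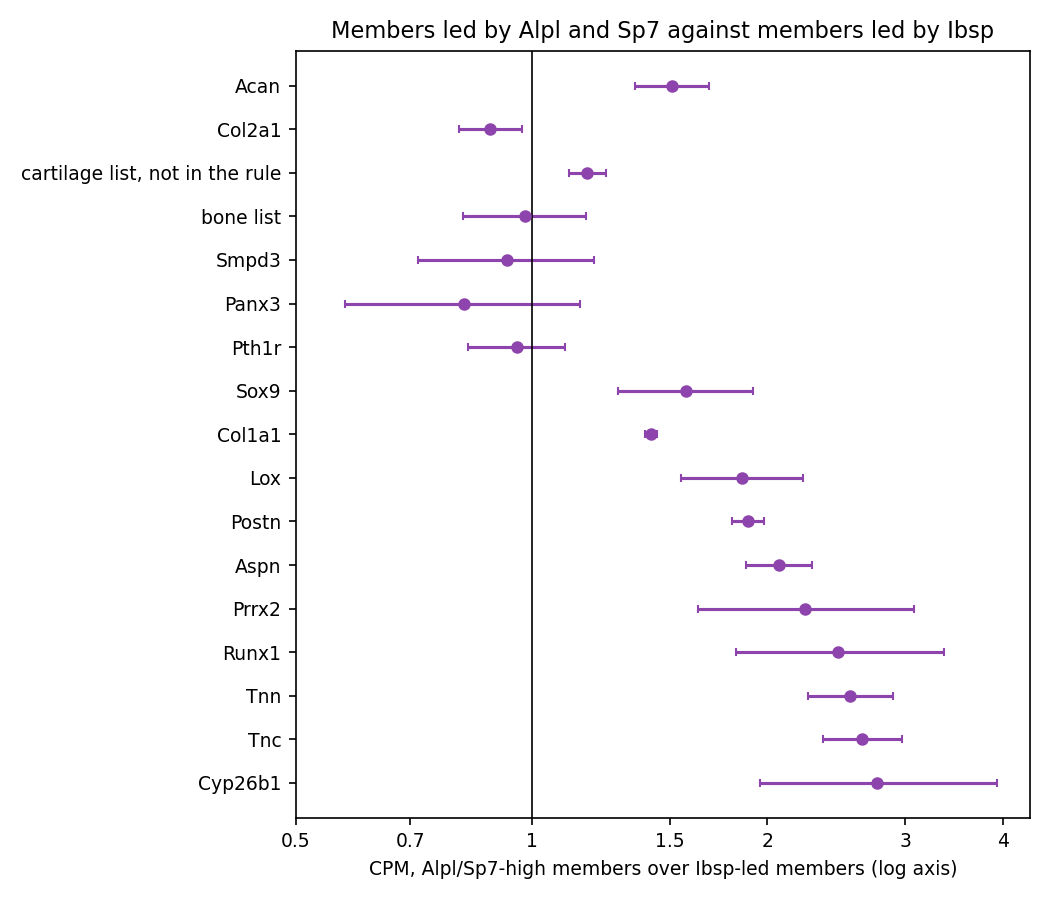
CPM in the 89 bone-gene spots that also passed a cut on Alpl and Sp7 alone divided by CPM in the 99 that did not (x axis, logarithmic), with exact intervals at 95%, for genes and lists. The bone list lies at 0.980, while Tnn, Tnc and Cyp26b1 lie between 2.55 and 2.76.

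On the earlier days no spot reached the day 7 score cut. The count was 0 of 2090 spots on day 0, 0 of 2154 on day 1 and 0 of 3020 on day 3, counts that, with 3 spots as the limit of a count of 0, leave room for shares of 0.144%, 0.139% and 0.0993%, against 437 of 2948, 14.8% (13.6 to 16.2), on day 7 with the cartilage spots counted in. Ibsp had 1, 0, 1 and 9061 UMIs on days 0, 1, 3 and 7, and Sp7 had 1, 1, 3 and 1615. Alpl was present throughout, at 12.1, 4.11, 8.34 and 65.5 CPM. Runx2 stood at 0.274, 1.37, 10.1 and 9.94 CPM, so that its level on day 3, when Ibsp and Sp7 were near 0, was like that on day 7. Whether muscles, sections or days account for these differences cannot be told apart with 1 section a day.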

How the data were processed

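The deposited files held whole-number UMI counts for each gene in each spot, which the authors made with 10x Genomics Space Ranger (version 1.2.0 per the file headers, while the labels and the methods name other versions) against the mm10 genome. Each section held 32285 features, and depth ran from 16777832 to 56113066 UMIs per section. Sections share array barcodes by design (1539 to 2311 with day 7), which are slide positions and not cells. The labels mention down-sampling of reads, which was not traceable in the files.

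Spots, cuts and 30 gene lists (239 genes, all found among the features) were chosen with earlier results of these data known. Counts of all spots in a class were added up and scaled to CPM. Genes with 10 or more UMIs in the classes compared were used. The level expected at equal cartilage share came from other spots weighted in 50 bands of cartilage share, of which 24 held bone-gene spots, and needed 20 UMIs observed plus expected. Named genes had at least 50 CPM in either class and were, mitochondrial genes and the 6 genes of the rule left out, the 12 highest and 8 lowest over other spots and the 10 highest and 10 lowest over cartilage spots, with every list gene. The text prints a selection of them, and the others are not reported here. Intervals are exact Poisson, conditional binomial for ratios, Clopper-Pearson for shares, and for ratios at equal cartilage share a log-scale interval from counting variance. A count of 0 is given with a limit of 3 counts of the total. Intervals and limits cover counting error only, and amplification duplicates are collapsed by UMI. No doublet caller was run, since a spot can hold several cells. Spot positions, images and the single-cell part were not used here. Scripts were tested on simulated data. Scaling by TMM and by size factors, other cuts, thinning and other alternatives were tried. The tools were SciPy 1.17.1 and pandas 2.3.3 under Python 3.11.15, and, for scaling factors only, edgeR 4.0.16 and DESeq2 1.42.0.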

Additional observations from a re-analysis of the deposited data

Results flagged for a closer look

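Spots under 2000 UMIs were outside every comparison. The day 7 section had 84 of them with 116345 UMIs in all, and Ibsp, Alpl and Sp7 summed to 27 UMIs there, 232 CPM (153 to 338). The uninjured day 0 section had 12.1 CPM (11.1 to 13.2), nearly all of it Alpl. The signal was flagged because it came from spots that no comparison used and lay above the uninjured section. It did not lie above the day 7 section as a whole. Ibsp, Alpl and Sp7 stood at 180, 34.4 and 17.2 CPM in these spots and at 217, 65.5 and 38.6 CPM in the whole day 7 section.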

How the results depend on the processing

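No bone list, cartilage list or cell cycle list ratio changed direction under an alternative, with 1 exception: the bone list at equal cartilage share went from 1.04 to 0.919 with the score cut at the 97th percentile. In the values that follow, the bone list and the cartilage list are given in that order. With the cartilage cut at the 80th percentile their ratios over other spots were 2.50 and 2.47, over cartilage spots 0.253 and 0.240, and 355 genes were 2-fold higher than in cartilage spots. With it at the 95th percentile they were 4.73 and 5.37 over other spots, the cartilage list was 0.272 of cartilage spots, and 2673 genes were 2-fold above other spots. With the score cut at the 90th percentile the cartilage list was 3.19 over other spots. With it at the 97th they were 2.61 and 2.91, the cartilage list was 0.224 of cartilage spots, and 1937 genes were 2-fold above other spots. With a score without Ibsp they were 2.51 and 2.62 over other spots and 0.192 and 0.194 over cartilage spots. With mitochondrial, haemoglobin and myofibre genes left out of the total they were 2.61 and 2.71, and 0.241 and 0.243. With TMM factors they were 2.46 and 2.55, and 0.242 and 0.243, with 726 genes above other spots, and DESeq2 size factors gave 2.46, 2.55, 0.242, 0.243 and 726. Without the filter on low counts 2089 and 1946 genes were 2-fold above other and cartilage spots. The cause of these shifts was not tested.

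The following alternatives were chosen after seeing the data. At equal cartilage share the ratios over other spots were 1.04 and 1.05, and with classes and values from separate parts of the UMIs 1.19 and 1.12. The cell cycle list at equal cartilage share was 1.46 with a score without Ibsp.

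On the earlier days, spots thinned to 2000 UMIs reached the cut with 1 marker UMI, and 1.82%, 0.882% and 2.09% did so on days 0, 1 and 3, against 30.1% (888 of 2948) on day 7. With a score without Ibsp the shares were 0.287%, 0.418% and 0.265%. Depth limits single spots most, where calls rest on as few as 2 UMIs. No paired analysis was possible because each day had 1 section.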
